A study of Mus musculus with 4 samples.

Results

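The genes described here encode parts of the tight junction in mouse epiblast stem cells: the claudins Cldn4, Cldn6, Cldn7, Cldn11 and Cldn12, the claudin-related gene listed as Cldn25, occludin (Ocln), the junctional adhesion molecule A gene F11r, and Tjp1, which encodes the scaffold ZO-1. They are the rows of the deposited table that carry these 9 symbols, out of 15429 genes in all, and each symbol matched 1 row. The set was selected on the FPKM differences between Tox4 esiRNA and Luc esiRNA in these libraries, which earlier results had shown, so the differences of the 9 genes are given as a description and carry no test. The row listed as Cldn25 has the identifier ENSMUSG00000022744, which GENCODE and RefSeq now call Cldnd1, claudin domain containing 1. It is a relative of the claudins, and RefSeq lists a different locus as Cldn25-ps. The row is called Cldn25 below, as in the table.

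Tight junctions seal the space between epithelial cells close to their apical side. Claudins are small proteins that span the membrane and pair with claudins of the neighbouring cell, and the set of claudins a cell makes determines which ions pass between cells. Occludin and the junctional adhesion molecules sit in the same strands, and the ZO proteins bind the tails of claudins on the inside and tie them to actin. The epiblast after implantation is an epithelium, and stem cells derived from it grow as a flat epithelial sheet.

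Polyadenylated RNA was sequenced from the line OE7, which came from post-implantation mouse embryos and carries the Oct4-Gip transgene, a green fluorescent reporter of Oct4, in every group. There were 2 libraries of cells given Tox4 esiRNA and 2 of cells given Luc esiRNA, the control. esiRNA is long double-stranded RNA digested into many short interfering RNAs against 1 transcript, and Tox4 encodes a chromatin-associated HMG-box protein. All cells were at passages 21 to 25 and grew on fibronectin in N2B27 medium to which Fgf2 (12 ng/ml) and Activin A (20 ng/ml) were added, and 1000 ng of esiRNA was given with 2 µl of lipofectamine. The libraries come from 1 cell line, and nothing in the labels says whether those of a group were separate cultures, so each p-value reflects the spread among these 4 libraries alone, and that spread may be technical.

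Whole reads worked back from the deposited FPKM (fragments per kilobase of gene length, scaled to library depth) came to 12778044 to 19008803 per library. The knockdown was partial: Tox4 was at 8.65 and 8.89 FPKM with Tox4 esiRNA, against 16.7 and 17.5 FPKM with Luc esiRNA, a ratio of 0.512 (limma adjusted p = 0.00228). Exons of Tox4 share 933 and 195 bases with Mettl3 and Rab2b on the opposite strand, and reads from there cannot be assigned if strand was not used. The epiblast markers Pou5f1 and Nanog were at 598 ± 21.2 and 198 ± 3.26 FPKM with Tox4 esiRNA and at 585 ± 4.31 and 199 ± 8.38 FPKM with Luc esiRNA (SD, n = 2 each). Of the 4 other epiblast markers listed, Sox2 rose (log2 difference 0.24, limma adjusted p = 0.0355, and up to 0.179 with a library left out). Dnmt3b, Otx2 and Fgf5, at -0.13, -0.15 and -0.092, did not pass, though both Tox4 libraries lay below both Luc libraries. Of the 12403 genes whose mean reached 1 FPKM, 4.51% passed the test across all genes (limma, adjusted p under 0.05), with 2.62% lower and 1.89% higher with Tox4 esiRNA, and in 26.7% both Tox4 libraries lay below both Luc libraries. All 9 genes described here were above that filter.

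The promoter windows of the 4 claudin genes with the lowest ratios are shown first, with that of Tjp1, whose groups overlapped, for comparison. Each runs from 250 bases before to 50 bases after a RefSeq transcript start in GRCm38.p6 and is written 5′ to 3′ on the strand of the gene. Capitals mark matches on either strand to the GC box GGGCGG, the E-box CACCTG that Snail and Zeb repressors are known to bind, and the AP-1 sequence TGANTCA. The windows are Cldn6 at chr17:23679115-23679414 (plus strand), the downstream of 2 starts of Cldn7 at chr11:69965171-69965470 (plus), Cldn4 at chr5:134946885-134947184 (minus), Cldn11 at chr3:31149670-31149969 (plus) and Tjp1 at chr7:65371195-65371494 (minus). The Tjp1 window lies inside the gene as GENCODE annotates it, and no window covers the 5′ end given there, base 65527781.
Cldn6: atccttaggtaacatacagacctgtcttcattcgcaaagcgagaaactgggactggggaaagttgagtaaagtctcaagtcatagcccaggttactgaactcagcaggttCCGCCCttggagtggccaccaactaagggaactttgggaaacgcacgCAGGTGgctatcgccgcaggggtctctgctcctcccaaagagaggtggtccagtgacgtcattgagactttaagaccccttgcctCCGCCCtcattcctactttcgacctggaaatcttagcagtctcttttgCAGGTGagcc
Cldn7: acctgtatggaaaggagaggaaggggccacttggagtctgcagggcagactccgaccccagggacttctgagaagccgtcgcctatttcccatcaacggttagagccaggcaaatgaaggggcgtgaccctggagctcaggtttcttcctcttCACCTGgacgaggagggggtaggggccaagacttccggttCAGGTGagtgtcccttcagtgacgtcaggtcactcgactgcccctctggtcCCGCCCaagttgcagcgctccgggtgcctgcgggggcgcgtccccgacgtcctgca
Cldn4: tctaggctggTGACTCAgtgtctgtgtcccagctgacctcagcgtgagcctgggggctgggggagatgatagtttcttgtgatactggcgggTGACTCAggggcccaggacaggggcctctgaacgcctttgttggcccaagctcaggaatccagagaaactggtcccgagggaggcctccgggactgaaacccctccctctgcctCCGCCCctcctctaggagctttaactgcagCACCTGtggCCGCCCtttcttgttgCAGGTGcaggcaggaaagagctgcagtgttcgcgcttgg
Cldn11: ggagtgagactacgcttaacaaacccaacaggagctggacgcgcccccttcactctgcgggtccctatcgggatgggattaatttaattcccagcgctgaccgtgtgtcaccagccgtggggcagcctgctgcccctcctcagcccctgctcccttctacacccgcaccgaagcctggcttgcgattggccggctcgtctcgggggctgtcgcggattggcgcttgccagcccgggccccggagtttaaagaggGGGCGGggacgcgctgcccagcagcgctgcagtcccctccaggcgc
Tjp1: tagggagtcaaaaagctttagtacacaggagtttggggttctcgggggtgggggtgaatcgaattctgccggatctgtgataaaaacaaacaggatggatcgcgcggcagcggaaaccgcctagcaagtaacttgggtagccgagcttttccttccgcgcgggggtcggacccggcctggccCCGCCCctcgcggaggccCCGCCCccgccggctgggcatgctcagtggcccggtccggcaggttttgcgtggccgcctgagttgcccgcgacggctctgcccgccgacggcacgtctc

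The windows of the genes were searched for 6 motifs on both strands: those above, the Grainyhead-like sequence AACCGGTT, the octamer ATGCAAAT and the TATA box TATAAA. All 9 genes had at least 1 RefSeq window, 13 in all. The GC box was found in a window of 8 of the 9 genes and in 10 of the 13 windows, and it is present in 35.7% of the 32851 promoter windows of the same length in the table. The E-box was found for 5 genes, Cldn4, Cldn6, Cldn7, Ocln and F11r, in 6 of the 13 windows, beside 20.2% of all windows. In the Cldn6 window it begins at base -93 and at base 41, where 1 is the first transcribed base and there is no base 0. In the shown Cldn7 window it begins at -97 and -57, and in the Cldn4 window at -14 and 12. The AP-1 sequence was found for Cldn4, at -240 and -158, and for F11r, beside 7.81% of all windows. Windows of 1 gene can overlap, so 1 E-box is counted in both Ocln windows and 1 GC box in a pair of Cldn12 windows, and the matches come to 9 distinct E-boxes and 12 distinct GC boxes. No window of the 9 genes holds the Grainyhead-like sequence, the octamer or the TATA box in these letters, which occur in 0.146%, 1.74% and 13.6% of all windows, and no match overlapped another. The windows of the 9 genes differ in base composition, from 45.3% G and C for the upstream start of Cldn12 to 68.0% for a start of Ocln, and the median of all windows is 52.7%. A match is a run of letters and was not tested as a binding site.

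With Cldn25 set aside, Cldn6 was the most abundant claudin, and all 5 claudin members were lower in both Tox4 libraries than in both Luc libraries. The same held for 26.7% of all genes tested. Cldn6 encodes claudin-6, a claudin of embryonic epithelia. It was at 18.9 FPKM in each of the Tox4 libraries, against 28.9 and 29.4 FPKM in Luc replicates 1 and 2, on 417 and 360 reads in the Tox4 libraries against 820 and 659 reads in the Luc libraries. The replicates of each group nearly coincided, and the groups did not overlap. The means were 18.9 ± 0.0547 FPKM with Tox4 esiRNA and 29.2 ± 0.376 FPKM with Luc esiRNA (SD, n = 2 each), a ratio of 0.649. The difference on the log2(FPKM + 1) scale was -0.60 (SE 0.04). For genes with low values this scale gives a smaller change than the ratio does. In bulk RNA, fewer cells with a transcript and less of it per cell cannot be told apart. In GRCm38 the gene (ENSMUSG00000023906) spans 23679249 to 23682446 of chromosome 17, plus strand.

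Cldn7 encodes claudin-7, a basolateral claudin known to bind the adhesion protein EpCAM. Its values were 8.61 and 9.10 FPKM in Tox4 replicates 1 and 2, against 15.7 and 14.3 FPKM in Luc replicates 1 and 2. Every Tox4 value lay well below every Luc value, and the ratio of the means was 0.590. On the log2(FPKM + 1) scale this was the lowest difference of the 9 genes, at -0.70 (SE 0.06), and the 87th lowest of all 12403 genes tested. The gene (ENSMUSG00000018569) spans 69964779 to 69967885 of chromosome 11, plus strand.

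Cldn11 and Cldn4 were scarce. Cldn11, which encodes the claudin of myelin and of Sertoli cell junctions, was at 1.36 and 1.84 FPKM with Tox4 esiRNA, against 3.13 and 3.04 FPKM with Luc esiRNA. Its ratio, 0.519, was the lowest of the 9, and its log2 difference was -0.66 (SE 0.12). It rested on 29 and 34 reads in the Tox4 libraries, against 86 and 66 reads in the Luc libraries. The exact 95% Poisson intervals of these read counts were 19.4 to 41.6 and 23.5 to 47.5 with Tox4 esiRNA, and 68.8 to 106 and 51.0 to 84.0 with Luc esiRNA. They cover counting error only. Scaled to the depth of each library, the interval of Tox4 replicate 2 overlapped those of both Luc libraries and that of Tox4 replicate 1 overlapped neither. Cldn4, whose protein is a receptor of Clostridium perfringens enterotoxin, was at 1.02 and 1.08 FPKM with Tox4 esiRNA, against 1.59 and 1.72 FPKM with Luc esiRNA. These values came from 24 and 22 reads in the Tox4 libraries against 48 and 41 reads in the Luc libraries. Scaled to depth, the exact 95% Poisson interval of each Tox4 library overlapped that of each Luc library. Its ratio was 0.637 and its log2 difference -0.37 (SE 0.12). Cldn11 (ENSMUSG00000037625) spans 31149920 to 31164324 of chromosome 3, plus strand. Cldn4 (ENSMUSG00000047501) is a single exon block on the minus strand of chromosome 5, from 134945119 to 134946934.

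Cldn12 differed less. Claudin-12 is known for a tail that lacks the usual motif for binding ZO proteins. Cldn12 was at 15.6 and 16.0 FPKM with Tox4 esiRNA, against 17.8 and 18.4 FPKM with Luc esiRNA, so the groups did not overlap although the ratio was 0.870. The log2 difference was -0.19 (SE 0.05). Cldn25, the Cldnd1 row, was at 28.2 and 27.5 FPKM with Tox4 esiRNA and at 28.2 and 27.5 FPKM with Luc esiRNA. Its groups overlapped, with a ratio of 1.00 and a log2 difference of 0.00016 (SE 0.04). Cldn12 (ENSMUSG00000046798) lies on chromosome 5 from 5489537 to 5514958 on the minus strand, and the Cldn25 row on chromosome 16 from 58727910 to 58734251 on the plus strand.

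**Figure D1:**
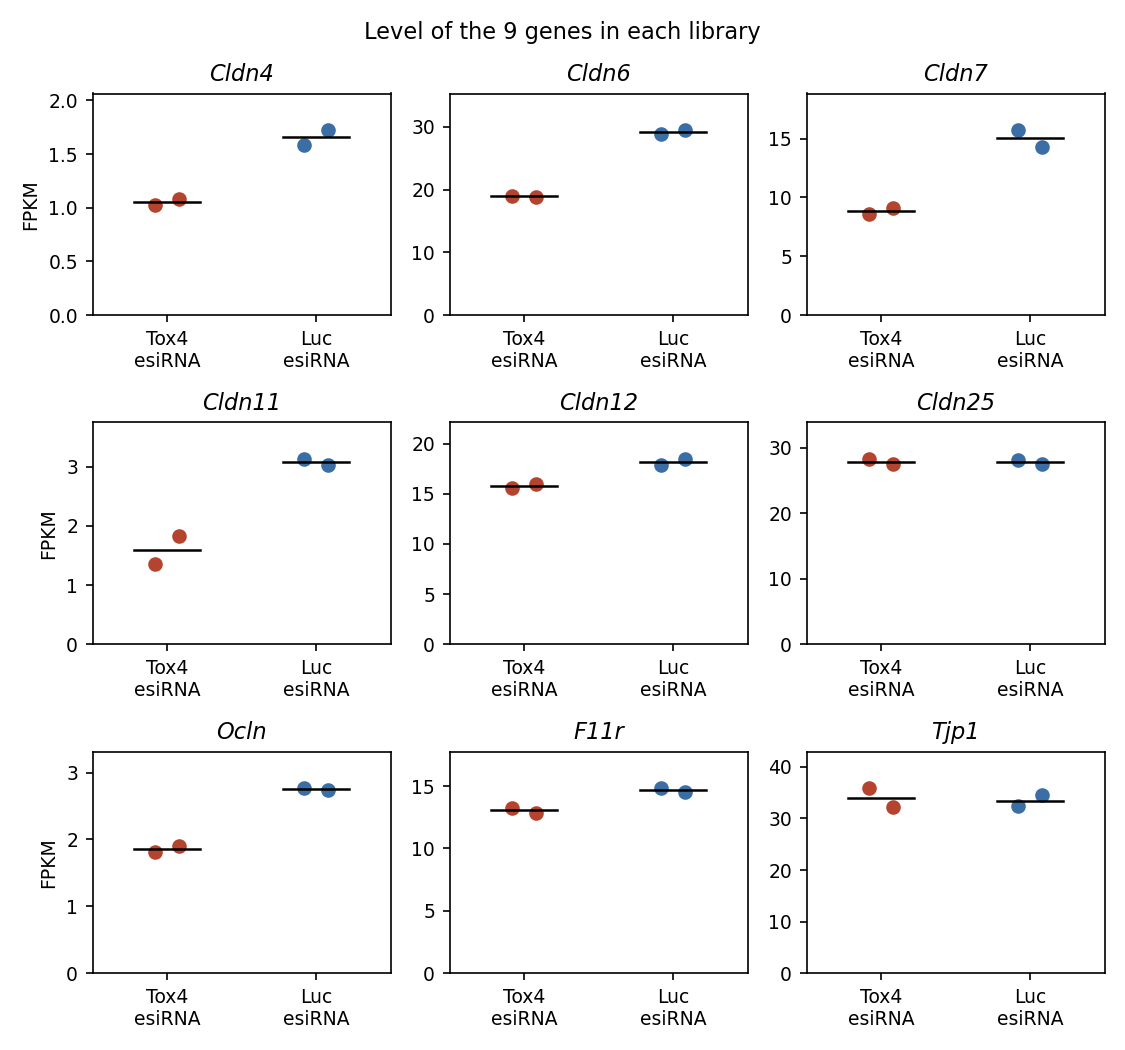
FPKM (y axis, from 0) of each of the 9 genes in the 2 Tox4 esiRNA libraries (red) and the 2 Luc esiRNA libraries (blue), with the group means as lines. For 7 genes both Tox4 points lie below both Luc points, and for Cldn25 and Tjp1 the groups overlap.

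The membrane proteins that share the strands with claudins differed in size of change. Ocln, which encodes the MARVEL-domain protein occludin, was at 1.82 and 1.90 FPKM with Tox4 esiRNA, against 2.76 and 2.74 FPKM with Luc esiRNA. The replicates were close to each other, the groups did not overlap, and the ratio was 0.675, with a log2 difference of -0.39 (SE 0.09). F11r was at 13.2 and 12.9 FPKM with Tox4 esiRNA, against 14.8 and 14.5 FPKM with Luc esiRNA. It too was lower in each Tox4 library, by a ratio of 0.890 and a log2 difference of -0.16 (SE 0.05). Ocln (ENSMUSG00000021638) lies on the minus strand of chromosome 13 from 100496507 to 100552718, and F11r (ENSMUSG00000038235) spans 171437535 to 171464603 of chromosome 1, plus strand.

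The scaffold gene Tjp1 (ENSMUSG00000030516, chromosome 7, 65296165 to 65527781, minus strand) did not separate the groups. It was at 35.8 and 32.2 FPKM in Tox4 replicates 1 and 2, against 32.4 and 34.6 FPKM in Luc replicates 1 and 2, on 2968 to 4440 reads. The libraries of either group spanned nearly the same range, and the log2 difference was 0.021 (SE 0.06). When each library was left out in turn it lay between -0.054 and 0.096.

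Of the 9 genes, 3 (Cldn6, Cldn7 and Cldn11) were past the threshold as lower in the fit across all genes and none as higher, where 4.51% of all genes tested passed in either direction and 2.62% were lower. In 7 of the 9, both Tox4 libraries lay below both Luc libraries, where this held for 26.7% of all genes. The median log2 difference of the 9 was -0.37, and that of all genes tested was -0.0034. Since the set was drawn up with these differences known, the counts describe it and test nothing. The number past the threshold was 1 without Luc replicate 1 (Cldn6), 2 without Luc replicate 2 and 2 without Tox4 replicate 1, and it was 5 in limma-voom on the recovered reads. With every gene kept regardless of level it was 0, and so was the number across all genes. In limma-voom 725 of all 12403 genes tested were lower and 782 higher, so the shares above do not apply to that fit.

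**Figure D2:**
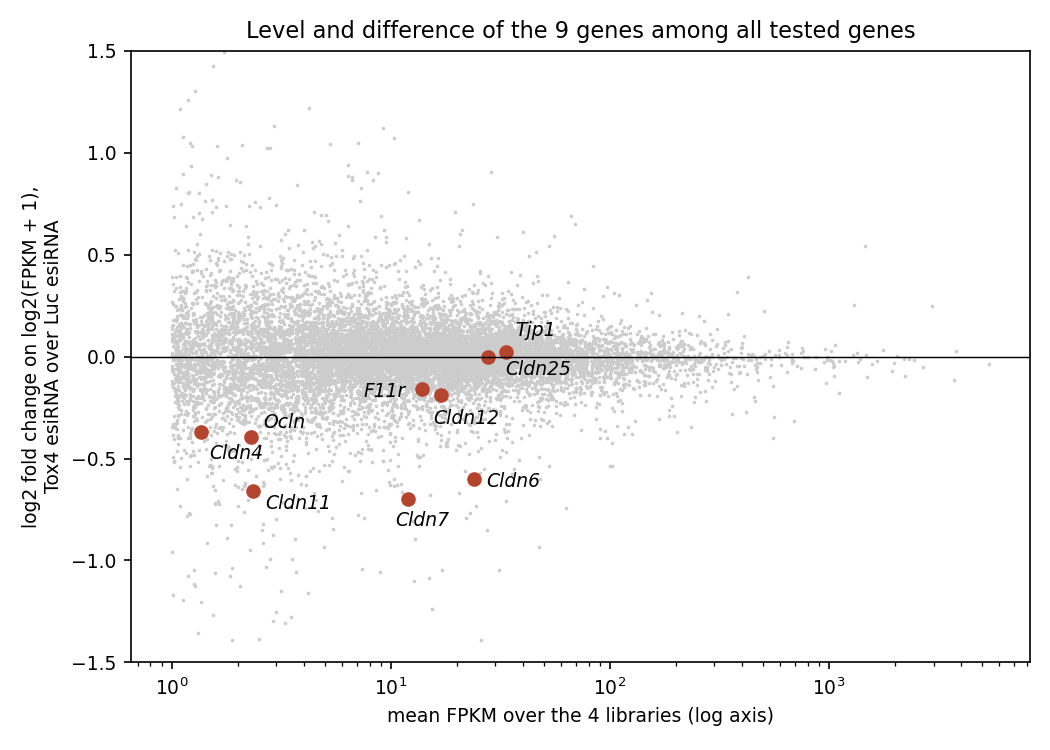
Log2 difference on log2(FPKM + 1), Tox4 esiRNA over Luc esiRNA (y axis), against the mean FPKM of the 4 libraries (log x axis) for all genes tested (grey) and the 9 genes (red). Cldn7, Cldn11 and Cldn6 lie near the lower edge of the cloud at -0.70, -0.66 and -0.60, while Tjp1 and Cldn25 lie on the zero line; 13 genes beyond 1.5 in either direction are outside the axis.

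The order of the levels per length was first read on the deposited values. With Tox4 esiRNA the order from the highest was Tjp1, Cldn25, Cldn6, Cldn12, F11r, Cldn7, Ocln, Cldn11 and Cldn4, and of the neighbours in it only Ocln and Cldn11 had overlapping libraries. With Luc esiRNA the order was Tjp1, Cldn6, Cldn25, Cldn12, Cldn7, F11r, Cldn11, Ocln and Cldn4, and only Cldn7 and F11r overlapped. These differences in order rest on the lengths used, as described next. Set among all genes tested, the mean levels of the 9 ran from the 4.43 percentile for Cldn4 and the 12.4 and 12.6 percentiles for Ocln and Cldn11 to the 80.3 percentile for Tjp1.

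Levels of different genes depend on the lengths the authors divided by. The length that gives whole reads was 65.6% of the annotated exonic length for Cldn7 and 75.6% for Cldn11, and 84.8% to 92.4% for the other 7. Among all genes the median was 79.8% for genes with a mean over 1000 reads and 10.1% for those with under 10, so FPKM values of barely detected genes are high for their reads. Per annotated exonic length the order was the same in both groups: Tjp1, Cldn25, Cldn6, Cldn12, F11r, Cldn7, Ocln, Cldn11 and Cldn4, with no neighbours overlapping in either group. On that scale Cldn6 was at 16.1 and 16.0 with Tox4 esiRNA, against 24.5 and 24.9 with Luc esiRNA, and Cldn25 was at 25.8 and 25.2 with Tox4 esiRNA, against 25.8 and 25.2 with Luc esiRNA. The length is the same in all libraries, and the ratios between groups do not depend on it.

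Summed per library, the 6 claudin genes that passed the filter, Cldn3, Cldn4, Cldn6, Cldn7, Cldn11 and Cldn12 came to 49.8 and 51.6 FPKM with Tox4 esiRNA, against 73.6 and 73.2 FPKM with Luc esiRNA. The means were 50.7 ± 1.31 FPKM with Tox4 esiRNA and 73.4 ± 0.290 FPKM with Luc esiRNA (SD, n = 2 each), a ratio of 0.691. Cldn6 made up 38.1% and 36.5% of the sum with Tox4 esiRNA, against 39.3% and 40.2% with Luc esiRNA. Cldn12 made up 31.3% and 31.0% with Tox4 esiRNA, against 24.3% and 25.2% with Luc esiRNA, and Cldn7 made up 17.3% and 17.6% with Tox4 esiRNA, against 21.3% and 19.6% with Luc esiRNA. The FPKM of Cldn6 was 1.22 and 1.18 times that of Cldn12 in the Tox4 libraries, against 1.62 and 1.60 times in the Luc libraries. Per annotated length the ratio of the sums was 0.700, with Cldn12 at 33.4% and 33.2% of the sum with Tox4 esiRNA, against 26.3% and 27.2% with Luc esiRNA. On either length the Cldn12 share was larger, and the Cldn7 share smaller, in each Tox4 library than in each Luc library.

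**Figure D3:**
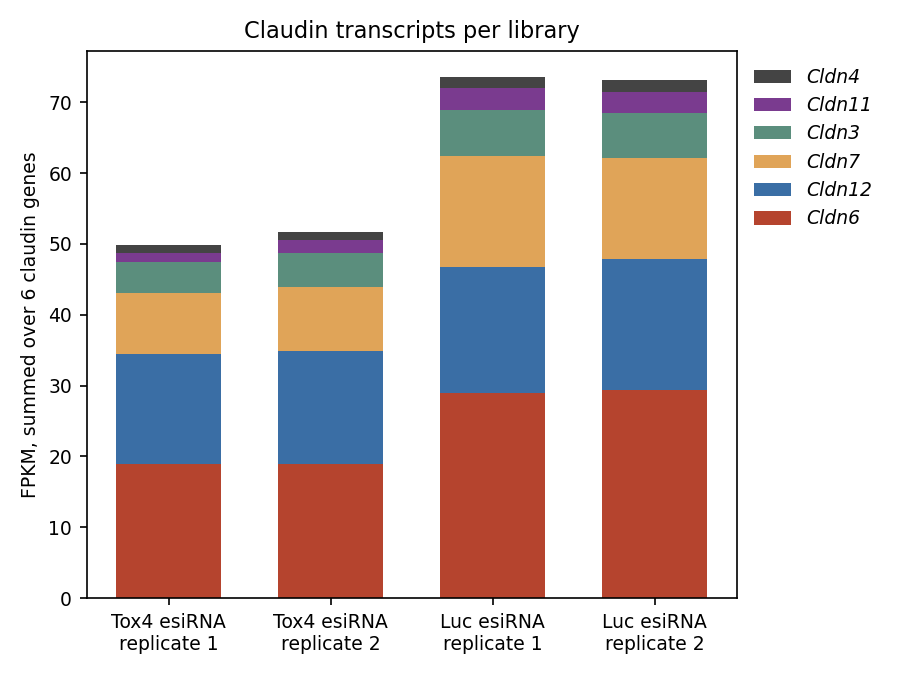
FPKM summed over 6 claudin genes (y axis) in the 2 Tox4 esiRNA and the 2 Luc esiRNA libraries, with each gene as a segment. The Tox4 bars reach 49.8 and 51.6 FPKM and the Luc bars 73.6 and 73.2 FPKM; the Cldn6 and Cldn7 segments are visibly shorter in the Tox4 bars and the Cldn12 segment only slightly.

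A wider list was read from the same fit, of other claudins, transmembrane, plaque and polarity genes, and genes whose products act on claudins. They are called the other tight junction genes here, though the polarity and claudin-acting genes need not encode junction parts. In the table were 55 genes other than the 9, and 46 were tested. Of these, 7 fell with Tox4 esiRNA (15.2%, beside 2.62% of all genes tested), none rose and 39 did not pass (limma, adjusted p under 0.05 over all genes). Among the 7 were 3 of the 9 tested claudin-acting genes and 1 of the 12 tested polarity genes. At an unadjusted p under 0.05 (limma) there were 13 lower and 3 higher, beside 2674 of all 12403 genes tested in either direction. In limma-voom 10 were called lower and 2 higher, beside 725 lower and 782 higher among all genes tested. The median log2 difference of the 46 was -0.028, beside -0.0034 for all genes. The list was written with earlier results of these data known. All 7 calls were lost without Luc replicate 1 and also without Luc replicate 2, and the fit with no intensity trend made none.

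Cldn3, the only other claudin tested, fell. Among the deposited genes it was the neighbour of Cldn4 on chromosome 5, 39280 bases away on the opposite strand. It was at 4.29 and 4.76 FPKM with Tox4 esiRNA, against 6.44 and 6.24 FPKM with Luc esiRNA, with a ratio of 0.713 (limma, log2 difference -0.41, SE 0.07, adjusted p = 0.0423). The groups did not overlap. The call was also lost without Tox4 replicate 1, with adjusted p between 0.0425 and 0.221 over the libraries left out. A stretch of 40 exonic bases of Cldn3 overlaps the antisense transcript Wbscr25, and reads from there cannot be assigned if strand was not used. The rows listed as Cldn10, Cldn26 (now Tmem114) and Cldnd2 had at most 2, 3 and 3 reads in a library and were not tested. The other claudins on the list, apart from Cldnd1, had no row among the values used here.

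Among the other transmembrane genes of the junction, 8 were tested, 1 fell and 7 did not pass. Crb3, which encodes the apical polarity protein Crumbs 3, fell to 4.55 ± 0.454 FPKM with Tox4 esiRNA, against 7.46 ± 0.358 FPKM with Luc esiRNA (SD, n = 2 each). In limma the log2 difference was -0.61 (SE 0.08, adjusted p = 0.0207), and adjusted p reached 0.140 without a Luc library. Marveld2 and Marveld3, named after their values were seen, encode relatives of occludin in the MARVEL family. Among the deposited genes, Marveld2 (tricellulin) is next to Ocln on chromosome 13, 43239 bases away. Marveld2 was at 4.58 and 3.89 FPKM with Tox4 esiRNA, against 5.89 and 6.29 FPKM with Luc esiRNA (log2 difference -0.44, SE 0.09, limma adjusted p = 0.0536). Marveld3 was at 1.11 and 1.33 FPKM with Tox4 esiRNA, against 2.05 and 1.90 FPKM with Luc esiRNA (-0.42, SE 0.12, limma adjusted p = 0.106). Neither passed, though the libraries of the groups did not overlap in either gene. Jam3 and Cxadr, adhesion molecules related to F11r, were at 0.015 (SE 0.05) and 0.048 (SE 0.06) on the log2 scale, and Lsr, of tricellular junctions, at -0.033 (SE 0.05), and these 3 too were chosen after their values were seen. Marveld1, also of the MARVEL family, was at 0.088 (SE 0.05), with both Tox4 libraries above both Luc libraries. Jam2, another relative of F11r, was at 0.34 (SE 0.23) on 11 to 23 reads, and its groups overlapped. Neither Marveld1 nor Jam2 passed, and both were named after their values were seen.

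Of the plaque and scaffold genes, 16 were tested, 1 fell and 15 did not pass. Tjp3, the ZO-3 gene, had a log2 difference of -0.11 (SE 0.07), with the cingulin gene Cgn at -0.11 (SE 0.05), and the scaffold gene Magi1 at -0.0020 (SE 0.06). In the other direction, Micall2 was at 0.34 (SE 0.11) and Amot at 0.16 (SE 0.06), and limma-voom called both higher. These 5 were chosen after their values were seen. The median of the 16 was -0.026. The angiomotin-like gene Amotl2 fell to 28.6 ± 0.250 FPKM with Tox4 esiRNA, against 33.0 ± 0.128 FPKM with Luc esiRNA (-0.20, SE 0.04, limma adjusted p = 0.0448). Its call was lost with each library left out, at adjusted p of 0.0783 to 0.213, and in the fit with a replicate block.

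Of 12 tested polarity genes, 1 fell and 11 did not pass, with a median of -0.048. The gene that fell was Llgl2, which encodes a Lethal giant larvae protein of the basolateral side. It was at 20.6 and 20.7 FPKM with Tox4 esiRNA, against 25.9 and 27.9 FPKM with Luc esiRNA (-0.37, SE 0.05, limma adjusted p = 0.0197, and up to 0.114 without a Luc library). The genes of the Par complex went in both directions and none passed. Pard3 was at 0.046 (SE 0.05), Pard6a at 0.074 (SE 0.05), Prkci, the atypical protein kinase C gene, at -0.0011 (SE 0.05), Prkcz at -0.076 (SE 0.06), Pard6b at -0.11 (SE 0.05) and Pard6g at -0.20 (SE 0.09), all chosen after their values were seen. Llgl1, a relative of Llgl2, was at 64.1 and 66.1 FPKM with Tox4 esiRNA, against 63.1 and 61.5 FPKM with Luc esiRNA (0.064, SE 0.04). Crb2, a relative of Crb3, was at 0.14 (SE 0.10). In Llgl1 and Crb2 both Tox4 libraries lay above both Luc libraries. Neither gene passed, and both were named after their values were seen.

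Of 9 tested genes whose products act on claudins or their trafficking, 3 fell (2.62% of all genes tested were lower) and 6 did not pass. These 3 belong to the system of EpCAM, which binds claudin-7, and of the membrane serine proteases and their inhibitors that control EpCAM cleavage. The list held St14 and Spint1 of that system too, so a shared system follows largely from how the list was written. Epcam fell to 145 and 154 FPKM with Tox4 esiRNA, against 188 and 182 FPKM with Luc esiRNA (-0.31, SE 0.04, limma adjusted p = 0.0225). Spint2, a membrane-bound protease inhibitor, fell to 60.1 and 63.7 FPKM with Tox4 esiRNA, against 75.1 and 76.2 FPKM with Luc esiRNA (-0.29, SE 0.04, limma adjusted p = 0.0241). Prss8, the protease prostasin, fell to 12.0 and 9.91 FPKM with Tox4 esiRNA, against 16.1 and 15.4 FPKM with Luc esiRNA (-0.49, SE 0.09, limma adjusted p = 0.0423). Without a Luc library these reached adjusted p of 0.143, 0.138 and 0.197. Exons of Prss8 share 122 bases with Kat8 on the opposite strand, and reads from there cannot be assigned if strand was not used. The protease gene St14 did not pass, at 0.058 (SE 0.04), and the related inhibitor Spint1 was at -0.15 (SE 0.04), both chosen after their values were seen. The tested genes outside that system were Rab13 at 0.21 (SE 0.07), Wnk1 at 0.038 (SE 0.07), Wnk4 at 0.00051 (SE 0.09) and Rab14 at -0.025 (SE 0.04). None of them passed, though for Rab13 both Tox4 libraries lay above both Luc libraries. They too were named after their values were seen.

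**Figure D4:**
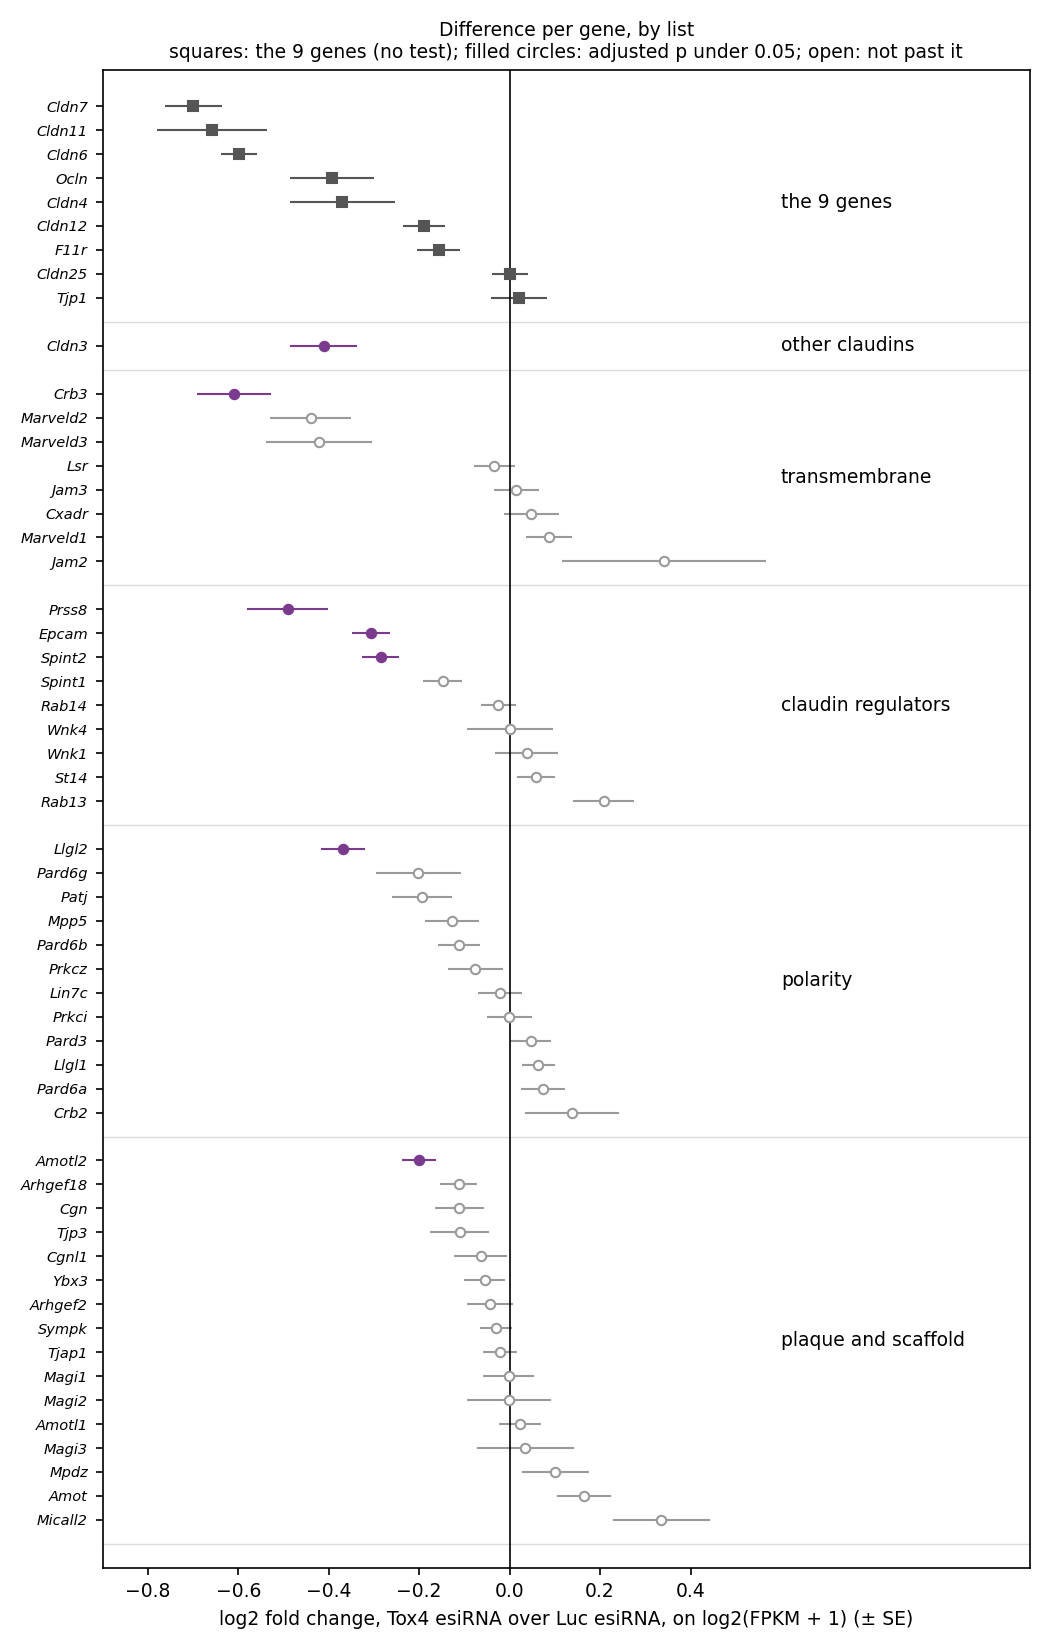
Log2 difference on log2(FPKM + 1), Tox4 esiRNA over Luc esiRNA, with its SE (x axis), for the 9 genes (squares, no test) and for the other tested tight junction genes by list (circles, filled where the limma adjusted p was under 0.05). The 7 filled circles are all left of zero, from Crb3 at -0.61 to Amotl2 at -0.20; the circles of plaque and scaffold genes lie around zero, with a median of -0.026.

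Among the 15429 deposited genes, the 18 nearest on either side of the 9 were read for their own differences. Genes without deposited values were passed over, and the distances ran from 337 to 737524 bases. Apart from Cldn3, none passed the test: 13 did not pass, with log2 differences from -0.44 (Marveld2) to 0.21 (Tarsl2), and 4 were below the filter. The gene before Cldn6, Tnfrsf12a, 1781 bases away, was at 12.6 FPKM with Tox4 esiRNA and 15.1 FPKM with Luc esiRNA (-0.24, SE 0.05, limma adjusted p = 0.0598). Elp5, 337 bases beyond Cldn7, was at 49.6 FPKM with Tox4 esiRNA and 46.0 FPKM with Luc esiRNA (0.11, SE 0.04, limma adjusted p = 0.164). Both were named after their values were seen. No exon of the 9 genes overlaps an exon of another gene in the annotation. Of the other junction genes named, Cldn3, Crb3, Jam3, Cxadr, Lsr, Tjp3, Llgl1, Crb2, Prss8 and Wnk4 share exonic bases with a gene on the opposite strand. The longest such stretch was 1159 bases, in Jam3, and the limit of strand given for Tox4 holds for these genes too.

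Genes near Cldn6 were sought by Euclidean distance over the 4 values on log2(FPKM + 1), and symbols of the Gm, Rik, AC, AL and LOC forms were passed over. The nearest of the rest were Maff (0.205), Scoc (0.206) and H2-Ab1 (0.206). The values of Scoc rested on 37 to 77 reads and on a length of 3.65% of its annotated exonic length. Per annotated length the mean of Scoc was 0.83, against 20.4 for Cldn6. Maff was at 21.7 and 20.0 FPKM with Tox4 esiRNA, against 28.5 and 29.6 FPKM with Luc esiRNA. A Pearson correlation with Cldn6 over 0.99 across the 4 libraries was found for 261 of 12402 genes, so likeness over so few libraries singles out little.

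Markers of other cell types were read from lists. Of 6 trophoblast markers 3 had values, which summed to 9.60 and 11.3 FPKM with Tox4 esiRNA, against 12.8 and 10.6 FPKM with Luc esiRNA, mostly from Krt7, a keratin gene at the 43.1 percentile of all genes tested. That percentile rests on a length of 13.9% of the annotated exonic length. The mean of Krt7 over the 4 libraries was 9.45 FPKM, and 1.31 per annotated length. The 2 of 6 markers of extraembryonic endoderm with values summed to 1.11 and 2.13 FPKM with Tox4 esiRNA, against 1.30 and 1.61 FPKM with Luc esiRNA, and the 3 of 6 endothelial markers to 0.882 and 1.14 FPKM with Tox4 esiRNA, against 1.30 and 1.04 FPKM with Luc esiRNA. The 6 fibroblast markers summed to 10.4 and 12.3 FPKM with Tox4 esiRNA, against 11.3 and 11.4 FPKM with Luc esiRNA. No listed marker with values was at 0 in all 4 libraries, although Pecam1, Kdr, Tek and Dcx were listed at 0 in at least 1. In these 4 lists the groups overlapped in every sum. The 5 neural markers with values summed to 28.1 and 31.8 FPKM with Tox4 esiRNA, against 21.9 and 22.1 FPKM with Luc esiRNA. That difference came mainly from Sox1, a neural progenitor factor, at 12.3 and 13.7 FPKM with Tox4 esiRNA against 5.28 and 5.57 FPKM with Luc esiRNA, which rose (log2 difference 1.12, SE 0.07, limma adjusted p = 0.00263), whereas the neuronal tubulin gene Tubb3 was at 13.0 FPKM in each group, the 53.2 percentile of all genes tested. The part of this difference in the results on claudins was not tested.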

How the data were processed

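Polyadenylated RNA of 4 libraries, 2 per group, was used, with groups and replicate numbers taken from the library titles. The authors deposited FPKM values of 15429 genes in a table of the series and in 1 file per library, and the 61716 values were identical. The submitters' processing notes name STAR 2.3.0e, CASAVA 1.8 and the build GRCm38.p1. The counting program, the annotation, the use of strand and the treatment of reads with several matches were not given in the sources used here, and counts of close paralogs could have been split.

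Whole reads were recovered from the FPKM values: after scaling each library to a common depth, 100% of values came out as whole numbers of reads (relative tolerance 1e-11), and each gene was given its smallest read numbers for which its length was whole to within 0.02 bp. A common factor was chosen this way for 4.37% of genes. Totals were 14739221 and 12778044 reads for Tox4 replicates 1 and 2 and 19008803 and 14998194 for Luc replicates 1 and 2. Replicates differed beyond sampling noise (chi-square per degree of freedom 1.88 between Tox4 and 1.59 between Luc libraries).

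Expression was tested on log2(FPKM + 1), for the 12403 genes whose mean reached 1 FPKM. The test was two-sided in limma 3.58.1 (R 4.3.3), with an intensity trend and Benjamini-Hochberg adjustment over all of them at 0.05. The 9 genes, the lists and the alternatives were chosen with earlier results of these data known. Named were Tox4, the 9 genes, from each list at most 4 genes that passed (or else the 2 most abundant tested), and neighbours that passed or are claudins. The 3 genes nearest to Cldn6 were named as well, with the symbol forms given above passed over. Other genes given with values were chosen after their values were seen. By this rule the fibroblast markers Col1a2 and Thy1 had log2 differences of -0.040 and 0.13, and the trophoblast markers Krt7 and Tfap2c of -0.15 and -0.13. Older symbols were matched through GENCODE M21 (GRCm38), in which Patj stands for the table's Inadl. Promoter windows are RefSeq's on GRCm38.p6. A plaque gene is not reported here and was left out of its list.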

Additional observations from a re-analysis of the deposited data

How the results depend on the processing

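Across all genes tested, the counts of 234 higher and 325 lower rested on the variance model and the filter. They were 33 and 45 with no intensity trend, 0 and 0 with no filter on low values (limma, 2939 genes at an unadjusted p under 0.05), and 782 and 725 in limma-voom with TMM on the recovered reads. With a filter at a mean of 5 FPKM 365 were higher. With each library left out in turn 27 to 176 were higher and 34 to 296 lower. In such a fit only the group that keeps 2 libraries informs the spread, and the lone library is assumed to vary alike. Of the other tight junction genes, 7 were lower and 0 higher. With no intensity trend and with no filter 0 were lower. At an unadjusted p under 0.05 (limma), 11 and 14 of them were lower in these fits, beside 2544 and 2939 of all genes in either direction. In limma-voom 2 of them were higher. With each library left out 0 to 6 were lower and none higher. The 7 genes called were the same at pseudocounts of 0.1 and 0.5 FPKM, with median scaling and in limma-voom, which called others besides. The cause of these changes was not tested.

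The replicate numbers gave no sign of pairing (correlation of deviations -0.036 over 2 pairs). With the replicate number as a block, 222 genes were higher and 334 lower, and 0 and 6 of the other tight junction genes; Amotl2 lost its call.

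The 7 genes of the set that were lower stayed lower under every alternative that kept them. Of the values of the 9 genes under the alternatives, 95 moved by less than the spread between replicates and 10 by more, all 10 with another pseudocount or in limma-voom and for Cldn4, Cldn6, Cldn11 or Ocln. The log2 difference of Cldn4 ran from -0.63 to -0.33, that of Cldn11 from -0.96 to -0.52 and that of Ocln from -0.56 to -0.37. Of the other named genes, 149 values kept their side of the threshold and 52 lost it. No difference that had passed changed sign, but Thy1, which had not passed at 0.13, was at -0.0030 without Tox4 replicate 2. Depth limits Cldn4 and Cldn11, at 22 to 86 reads per library.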
